A study of Mus musculus with 12 samples.

Results

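The transcriptome of control mouse kidney cortex was described from 6 libraries, those titled Con_24w and Con_12w, out of 12 in the study. They were chosen by title alone, and genes were ranked by the mean of the deposited log2 value over the 6 libraries. The mice were C57BL/6J, fed a normal diet and given corn oil, for 24 weeks in the Con_24w group (3 libraries) and for 12 weeks in the Con_12w group (3 libraries). These are the controls of a study of non-alcoholic steatohepatitis (NASH), so both control groups carry the corn oil vehicle. Below, the word age stands for the weeks of diet and corn oil, 24 or 12, and not for the age of the mice. The labels give 8 mice (4 males and 4 females) for the 24-week controls and 6 mice (3 males and 3 females) for the 12-week controls. They do not say which mice, or which sex, stand behind a library, nor whether animals were pooled. By the labels alone, a spread between libraries may be technical or may hold both sexes. Transcripts that differ by sex are given by library below. No test between groups was made.

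The kidney cortex holds the glomeruli, which filter the blood, and the convoluted tubules that take back most of the filtrate. The proximal tubule makes up most of its mass. It reclaims sodium, phosphate, sugar, amino acids and filtered protein, secretes organic ions, makes glucose and ammonia, and burns fatty acids in many mitochondria to pay for this transport. Later segments are the thick ascending limb, the distal convoluted tubule, the connecting tubule and the collecting duct, each with its own salt, calcium or water carriers.

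Each library held values for the same 11614 genes, on the log2 scale of read counts times 1 factor per library (scaled reads). By the step that 1 read makes in the values, the depth was 10100000, 14100000 and 11200000 reads at 24 weeks and 12700000, 13700000 and 13100000 reads at 12 weeks. Replicate 1 of both ages stood apart from the other 4 libraries. Across genes, log2 values correlated at a Pearson r of 0.966 between replicate 1 of 24 weeks and replicate 1 of 12 weeks, and at 0.895 to 0.928 between either of them and any of the other 4. Among the other 4 the range was 0.956 to 0.985. Genes are not independent replicates, and these values describe the libraries. Xist, the RNA of the silenced X chromosome of females, had log2 values of 10.66, 4.86 and 3.30 at 24 weeks and 11.54, 3.93 and 4.21 at 12 weeks. Ddx3y, a gene of the Y chromosome, had 4.25, 9.34 and 9.45 at 24 weeks and 3.69, 9.21 and 9.62 at 12 weeks. Xist was thus high and Ddx3y low in replicate 1 of both ages, the pattern of female tissue. The other 4 libraries had the reverse, the pattern of male tissue. A list of 30 genes known to differ by sex in mouse kidney was also summed, after division by exonic length. It held 1.23%, 8.51% and 8.59% of the total at 24 weeks and 0.588%, 10.4% and 10.2% at 12 weeks. Kap made 82.9% of this sum. Most values are therefore given by library, some lists as a range over the 6, and the 8 summary values also without replicate 1 of both ages.

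Promoters are shown for 4 genes that the profile turns on: the most abundant gene (Gpx3), the most abundant solute carrier (Slc34a1), and a pair with a wide spread between libraries (Kap and Cyp4b1). Sequences are from RefSeq (GRCm38.p6) and run 5′ to 3′ on the strand of the gene, from 250 bases before to 50 bases after the start of the gene in RefSeq. For Cyp4b1 that start lies 16 bases before the start in the files, and for the other 3 genes the starts are the same. They cover chr11:54902604-54902903 (plus strand), chr13:55399398-55399697 (plus strand), chr6:133853618-133853917 (minus strand) and chr4:115647672-115647971 (minus strand), in the order printed. Capitals mark exact matches on either strand to TATAAA (the TATA box), GTTAAT (a part of the motif of the factor HNF1) and GGGCGG (the GC box), which do not overlap here.
Gpx3: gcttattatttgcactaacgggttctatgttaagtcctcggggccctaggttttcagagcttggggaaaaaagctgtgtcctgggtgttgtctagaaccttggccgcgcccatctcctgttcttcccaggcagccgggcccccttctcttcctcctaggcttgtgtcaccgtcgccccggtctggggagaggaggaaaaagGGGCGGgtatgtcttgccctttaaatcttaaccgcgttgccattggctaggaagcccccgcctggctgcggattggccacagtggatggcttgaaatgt
Slc34a1: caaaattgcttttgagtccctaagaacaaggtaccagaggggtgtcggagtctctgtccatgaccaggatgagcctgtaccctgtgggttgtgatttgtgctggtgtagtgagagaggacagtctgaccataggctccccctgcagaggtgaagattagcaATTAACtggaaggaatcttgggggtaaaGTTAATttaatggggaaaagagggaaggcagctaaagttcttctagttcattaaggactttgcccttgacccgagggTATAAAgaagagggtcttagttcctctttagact
Kap: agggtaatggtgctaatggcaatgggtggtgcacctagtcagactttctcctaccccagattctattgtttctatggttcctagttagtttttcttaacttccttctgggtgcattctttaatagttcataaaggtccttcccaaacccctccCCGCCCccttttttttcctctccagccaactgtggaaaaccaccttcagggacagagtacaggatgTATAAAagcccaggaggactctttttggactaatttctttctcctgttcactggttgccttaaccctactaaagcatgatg
Cyp4b1: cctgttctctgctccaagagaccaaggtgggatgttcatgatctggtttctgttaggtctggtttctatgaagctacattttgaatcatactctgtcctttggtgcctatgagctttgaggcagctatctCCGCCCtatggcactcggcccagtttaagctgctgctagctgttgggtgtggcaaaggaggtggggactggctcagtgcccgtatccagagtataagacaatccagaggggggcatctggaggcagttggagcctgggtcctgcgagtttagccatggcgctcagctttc
The Slc34a1 window held TATAAA 17 bases after the start and GTTAAT on both strands before it, and Kap held TATAAA 31 bases before its start and a GC box on the other strand. Gpx3 and Cyp4b1 held only the GC box among the 3 motifs. Of 58 proximal tubule markers 48 had a promoter in the table, and 18.75% of these held TATAAA, 20.8% GTTAAT and 45.8% GGGCGG. Of the measured genes 9259 had one, of which 7.36% held TATAAA, 4.71% GTTAAT and 64.8% GGGCGG. The markers were thus above the measured genes in the first 2 motifs and below them in the GC box, with no test made. Over all 32851 promoters of the table, which include genes not measured, the shares were 13.6%, 7.10% and 35.7%. A match describes the letters in the window and is not shown to be a bound site.

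Gpx3, the secreted glutathione peroxidase of plasma that the proximal tubule makes, was the most abundant of the measured genes in each of the 6 libraries. Its gene (gene ID 14778) lies at chr11:54902854-54910387 on the plus strand of mm10. Its log2 values were 19.17, 19.12 and 19.02 at 24 weeks and 19.24, 18.82 and 18.91 at 12 weeks. It took 4.31%, 4.07% and 3.83% of the reads of all measured genes at 24 weeks and 4.54%, 3.32% and 3.56% at 12 weeks. This was 4.07% ± 0.241 and 3.81% ± 0.646 (SD, n = 3 each). The measured genes include none of the mitochondrial chromosome. The 95% Wilson interval of such a share was narrow, for example 4.30% to 4.32% in replicate 1 of 24 weeks, and covers counting error only. Both replicate 1 libraries had the highest share of their group, and without them the mean over libraries was 3.69% in place of 3.94%.

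Reads were concentrated in few genes. The 10 most abundant genes held 8.99%, 12.3% and 11.5% of reads at 24 weeks and 9.11%, 10.98% and 11.2% at 12 weeks. The 100 most abundant held 22.7%, 29.1% and 28.3% at 24 weeks and 23.2%, 26.3% and 27.1% at 12 weeks, or 26.7% ± 3.51 and 25.5% ± 2.09 (SD, n = 3 each). When genes were ranked within each library, 50% of reads lay in 779, 470 and 498 genes at 24 weeks and in 742, 623 and 587 genes at 12 weeks. Replicate 1 of both ages was thus the least concentrated on each of these measures, and the 24-week and 12-week groups overlapped on all 3. Without those 2 libraries the top 10 held 11.8%, the top 100 held 28.1%, and 50% of reads lay in 544.5 genes on average. The other end was flat: 3854 genes (33.2% of all) with a mean log2 value between 6 and 8 together held 4.41% of reads, little more than Gpx3 alone.

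**Figure D1:**
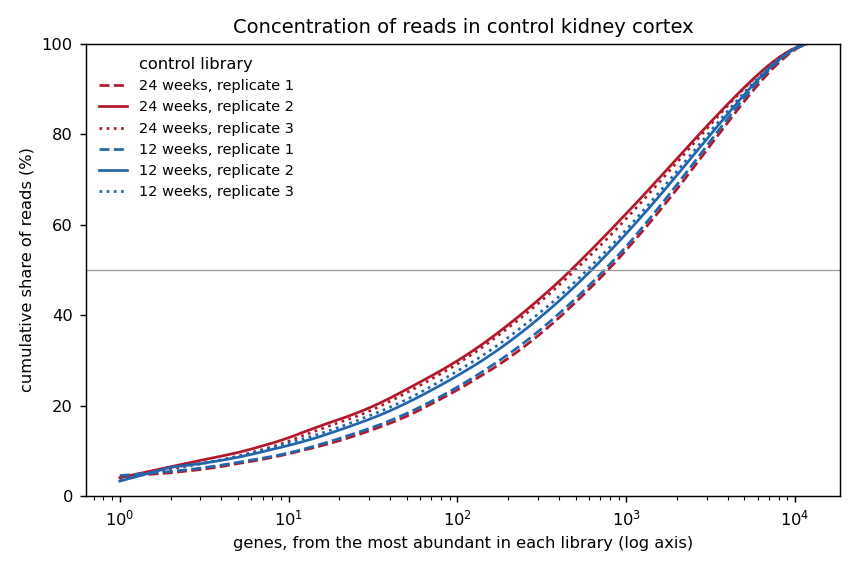
Cumulative share of reads (%, vertical axis) against the number of genes counted from the most abundant in each library (log axis), with 1 line per control library and a grey line at 50%. The dashed lines of replicate 1 at both ages lie lowest between about 10 and 1000 genes and cross 50% at 779 genes (24 weeks) and 742 genes (12 weeks).

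Abundant genes after Gpx3 served fat metabolism, ion transport, iron storage and translation. Slc34a1, the apical sodium phosphate carrier of the proximal tubule, had log2 values of 16.47, 16.39 and 16.44 at 24 weeks and 16.57, 16.67 and 16.82 at 12 weeks. Over the 6 libraries Slc34a1 averaged 16.56 ± 0.16 and Eef1a1 (an elongation factor of translation) 16.55 ± 0.11 (SD), so their order was not resolved. The first 10 genes also held Kap, Acsm2 (a medium-chain acyl-CoA synthetase), Ndrg1 (a stress-responsive gene), and the ferritin chains Fth1 and Ftl1. These ranged from 16.88 for Kap to 15.69 for Ftl1 in mean log2 value. Only 4 genes stood among the first 10 of each of the 6 libraries, and 18 did so in at least 1. For the first 100 these counts were 61 and 147, and for the first 500 they were 338 and 685.

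**Figure D2:**
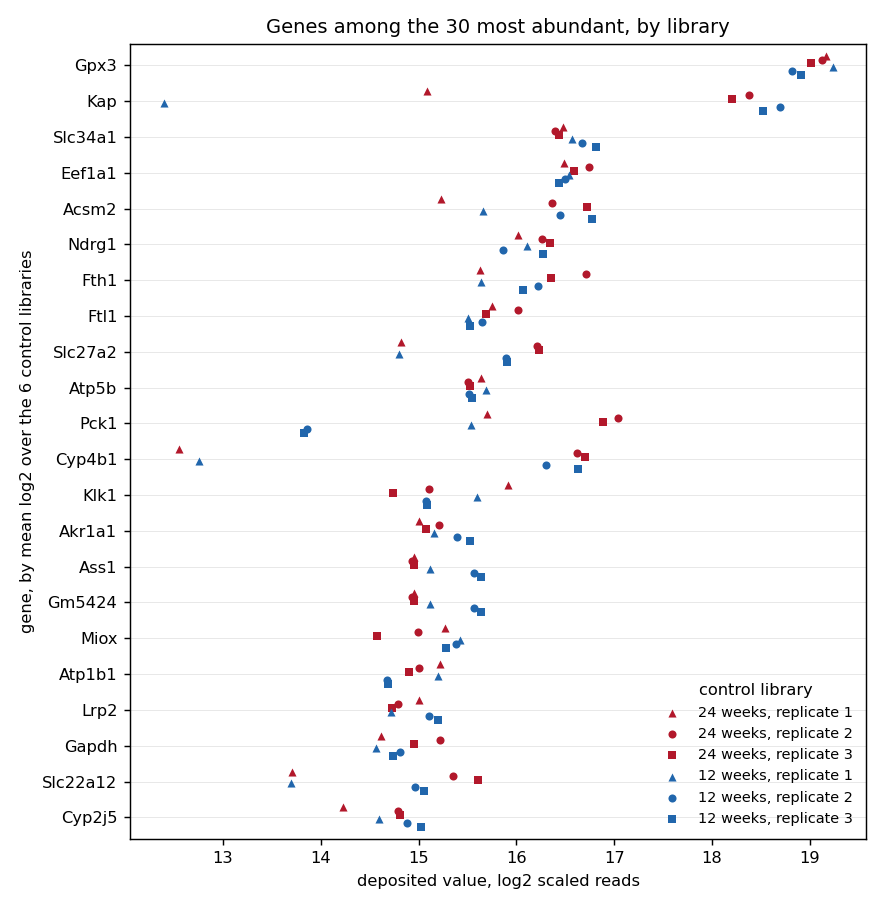
Deposited values (log2 scaled reads, horizontal axis) of 22 of the 30 genes with the highest mean over the 6 control libraries. The genes are listed from the highest down. Each point is 1 library, colored by weeks of diet and corn oil and shaped by replicate. Gpx3 lies alone between 18.82 and 19.24, while Kap spans 12.39 to 18.69 and Pck1 13.83 to 17.04.

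Per length the order changed. A long transcript gives more reads, and levels here were averaged on the linear scale, while the rank by reads used mean log2 values. The per-length level is the linear value per kilobase of exonic length, scaled so that all genes of a library sum to 1000000 ppm. By this measure 2 genes far exceeded the rest: Kap (kidney androgen regulated protein, 608 bases) averaged 54536 ppm and Gpx3 (1522 bases) 50192 ppm. Among the next were Fth1 with 10658 ppm, Ftl1 with 7634 ppm, Eef1a1 with 7489 ppm and Klk1, a kallikrein protease of the connecting tubule, with 6052 ppm. Miox, which opens the ring of inositol in the proximal tubule, followed with 4986 ppm, then Cyp4b1 with 4822 ppm, Fxyd2 (a regulator of the sodium pump) with 4600 ppm and Slc34a1 with 4404 ppm. The endocytic receptor Lrp2 (megalin) ranked 26 by log2 value and 596 per length, at 283 ppm over 15467 bases. With the median length of its GENCODE transcripts in place of that of the files, Lrp2 stood at 955 ppm and rank 130, and Acsm2 at 5032 ppm in place of 1676 ppm.

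Kap changed place with Gpx3 between libraries. Its per-length level was 8478, 71532 and 69166 ppm at 24 weeks and 1373, 91597 and 85073 ppm at 12 weeks, against 57499, 47862 and 48388 ppm at 24 weeks and 63169, 39911 and 44319 ppm at 12 weeks for Gpx3. Kap was thus above Gpx3 in replicates 2 and 3 of both ages and below it in replicate 1 of both. It held 0.0394% to 3.04% of reads, a range of 78.9-fold in scaled reads.

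The proximal tubule markers held the largest summed level of the segment lists. The 58 genes of the 3 proximal tubule lists, all measured, summed to 9.74%, 9.99% and 10.5% of the per-length total at 24 weeks and to 10.7%, 9.04% and 9.90% at 12 weeks. Without replicate 1 of both ages the mean was 9.87%, in place of 9.99%. Gpx3 was 50.2% of this sum. Its per-length level was 57499 and 63169 ppm in replicate 1 of 24 and 12 weeks, against 39911 to 48388 ppm in the other libraries. Without Gpx3 the lists held 4.97% with an SD of 0.648 over the 6 libraries, against an SD of 0.609 with it. An even sum therefore need not mean even members. The median marker common to all parts had 820 ppm, against 19.7 ppm for the median of all measured genes, and 17 of these 30 stood among the 100 most abundant genes. In bulk tissue, fewer cells of a type and less RNA per cell cannot be told apart.

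The summed level of markers of the convoluted part was more even over libraries than that of the straight part. The 12 convoluted-part genes summed to 0.356%, 0.374% and 0.392% at 24 weeks and to 0.487%, 0.296% and 0.357% at 12 weeks. They were led by the organic anion carriers Slc22a8 (761 ppm) and Slc22a6 (664 ppm), the sulfate carrier Slc13a1 (472 ppm), the sodium-glucose carrier Slc5a2 (389 ppm) and the bicarbonate carrier Slc4a4 (329 ppm). In log2 value, Slc22a6 was lower in replicate 1 of both ages than in the other 4 libraries. Slc5a2 and Slc4a4 were higher there, and Slc22a8 and Slc13a1 had a mixed order. The 16 straight-part genes summed to 0.231%, 0.657% and 0.777% at 24 weeks and to 0.155%, 0.726% and 0.794% at 12 weeks. Both replicate 1 libraries lay below the other 4. The aminoacylase Acy3 made 53.6% of this sum, and its log2 values were 12.37, 15.07 and 15.03 at 24 weeks and 11.91, 15.16 and 15.28 at 12 weeks. The amino acid carrier Slc7a13 had 2.44, 13.09 and 13.53 at 24 weeks and 4.10, 13.81 and 13.69 at 12 weeks.

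The later segments lay in the opposite order. Thick ascending limb markers summed to 0.506%, 0.173% and 0.194% at 24 weeks and to 0.346%, 0.265% and 0.169% at 12 weeks. Umod (uromodulin, the main protein of normal urine) made 47.4% of this sum, with log2 values of 15.30, 14.15 and 14.22 at 24 weeks and 14.53, 14.74 and 13.83 at 12 weeks. Slc12a1, the sodium-potassium-chloride carrier of that segment, had 13.08, 10.87 and 11.16 at 24 weeks and 12.42, 11.92 and 11.09 at 12 weeks. For both genes, replicate 1 of 24 weeks was the highest library.

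Distal convoluted tubule markers summed to 0.154%, 0.0435% and 0.0456% at 24 weeks and to 0.143%, 0.0530% and 0.0506% at 12 weeks. The thiazide-sensitive carrier Slc12a3 led them with 897, 248 and 258 ppm at 24 weeks and 704, 282 and 272 ppm at 12 weeks. Connecting tubule markers summed to 1.60%, 0.762% and 0.641% at 24 weeks and to 1.31%, 0.815% and 0.805% at 12 weeks. Of the 5 measured, Klk1 (6052 ppm), S100g (a calcium carrier protein, 3442 ppm) and Calb1 (calbindin, 352 ppm) were the highest, and the calcium channel Trpv5 had 18.6 ppm. In these lists replicate 1 of both ages lay above the other 4 libraries.

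The collecting duct lists summed to less than those of the thick limb and the connecting tubule in each library. The water channel Aqp2, which marks principal cells, had log2 values of 10.93, 10.78 and 10.00 at 24 weeks and 9.68, 10.78 and 9.57 at 12 weeks, with no common place for replicate 1. Principal cell markers (11 genes) summed to 0.118%, 0.0744% and 0.0745% at 24 weeks and to 0.0957%, 0.0829% and 0.0692% at 12 weeks. Intercalated cell markers (16 genes) summed to 0.158%, 0.0770% and 0.0784% at 24 weeks and to 0.156%, 0.0890% and 0.0919% at 12 weeks. Both sums were higher in replicate 1 of both ages than in the other 4 libraries. The median member had 58.1 ppm among the principal cell markers and 46.8 ppm among the intercalated cell markers, against 54.5 ppm in the thick limb list and 19.7 ppm over all genes. Intercalated cells secrete acid or base, and the pump subunit Atp6v0a4 (212 ppm) and the ammonia channel Rhcg (136 ppm) led their list.

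Marker lists of cells outside the tubule also summed to small parts of the total. Podocyte markers, which belong to the filter, summed to 0.0710%, 0.0306% and 0.0322% at 24 weeks and to 0.0692%, 0.0441% and 0.0414% at 12 weeks, led by Podxl (121 ppm). Endothelial markers summed to 0.128%, 0.0620% and 0.0374% at 24 weeks and to 0.0920%, 0.0858% and 0.0722% at 12 weeks. Markers of macrophages and dendritic cells summed to 0.0868%, 0.0584% and 0.0353% at 24 weeks and to 0.0699%, 0.0711% and 0.0443% at 12 weeks, of which Cd74 made 57.4%. Replicate 1 of both ages was above the other 4 libraries in the podocyte and endothelial sums. The median member had 16.8 ppm among podocyte markers and 26.5 ppm among endothelial markers. Thin limb and inner medulla markers summed to 0.00224% to 0.0150%. None of the 10 lymphocyte, 5 neutrophil and 6 adrenal cortex markers was among the measured genes, and a gene without a row is not shown to be unexpressed.

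One library held more of the adipocyte markers than any other. The 8 genes summed to 0.387% in replicate 1 of 24 weeks, to 0.0423% and 0.0299% in the other 24-week libraries, and to 0.0291%, 0.0114% and 0.00823% at 12 weeks. Fabp4, a fatty acid binding protein of adipocytes and endothelium, had log2 values of 12.65, 10.68 and 9.69 at 24 weeks and 9.49, 9.03 and 8.49 at 12 weeks. Ucp1, which marks brown fat, had 11.88, 4.25 and 5.66 at 24 weeks and 5.06, 2.34 and 3.89 at 12 weeks. The part of adipocyte RNA in the other values of that library was not tested.

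**Figure D3:**
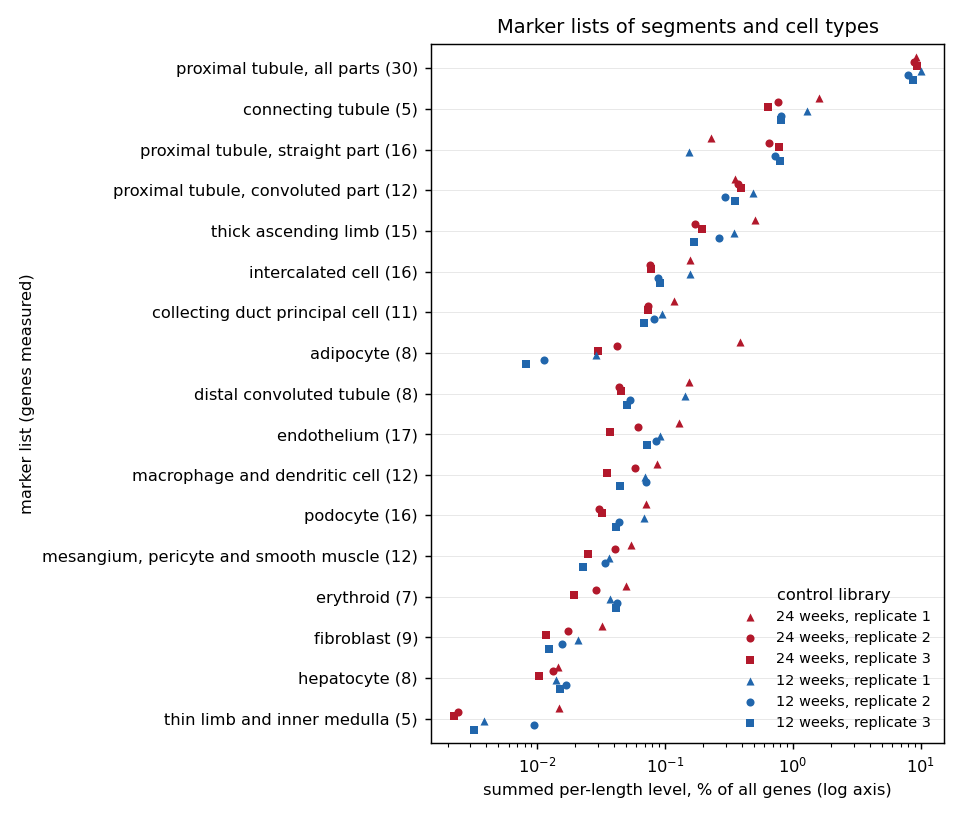
Summed per-length level of marker lists (% of all genes, log axis) for nephron segments and other cell types, with the number of genes measured in brackets; each point is 1 control library. The proximal tubule list lies between 8.01% and 10.1%, the straight-part list is lowest in replicate 1 of both ages, and the adipocyte list reaches 0.387% in replicate 1 of 24 weeks.

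Solute carriers were many but rested on few members. The superfamily counted 270 genes of 51 subfamilies and summed to 3.07%, 3.30% and 3.72% of the per-length total at 24 weeks and to 3.33%, 3.21% and 3.47% at 12 weeks. Without replicate 1 of both ages the mean was 3.42%, in place of 3.35%. Its 5 highest members held 37.4% of this sum and its 20 highest 62.3%, while 53 members averaged under 10 ppm. The 5 were Slc34a1 (4404 ppm), the fatty acid carrier Slc27a2 (3288 ppm), the mitochondrial ADP/ATP carrier Slc25a5 (1928 ppm), the urate carrier Slc22a12 (1863 ppm) and the mitochondrial phosphate carrier Slc25a3 (1047 ppm). The median member had 27.3 ppm, close to the 19.7 ppm of all genes.

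The subfamilies differed in their spread. Mitochondrial carriers (Slc25, 37 genes) summed to 0.683%, 0.645% and 0.675% at 24 weeks and to 0.718%, 0.587% and 0.597% at 12 weeks. Organic ion carriers (Slc22, 18 genes) summed to 0.379%, 0.629% and 0.729% at 24 weeks and to 0.413%, 0.567% and 0.608% at 12 weeks. Slc22a12 was also lowest in replicate 1 of both ages, with log2 values of 13.71, 15.35 and 15.61 at 24 weeks and 13.70, 14.96 and 15.05 at 12 weeks. Slc27a2, which made 97.7% of its subfamily, had 14.82, 16.21 and 16.23 at 24 weeks and 14.80, 15.89 and 15.90 at 12 weeks. In both, replicate 1 of both ages lay below the other 4 libraries.

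Pumps and channels were led by the sodium pump, which drives sodium-coupled uptake. Its subunits and regulators summed to 1.16%, 0.935% and 0.904% at 24 weeks and to 0.985%, 0.825% and 0.845% at 12 weeks, with Fxyd2 (4600 ppm) and Atp1b1 (1737 ppm) among the highest. The proton pump (22 genes) summed to 0.522%, 0.408% and 0.407% at 24 weeks and to 0.524%, 0.405% and 0.424% at 12 weeks, highest in replicate 1 of both ages. The ABC transporters (39 genes), led by the urate and drug exporter Abcg2 (465 ppm), summed to 0.146% to 0.199%. Of the 8 aquaporins, Aqp1 of the proximal tubule made 57.6% of the summed level.

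Enzyme families were uneven. The glutathione peroxidases summed to 5.94%, 5.02% and 5.04% at 24 weeks and to 6.47%, 4.20% and 4.62% at 12 weeks, of which Gpx3 made 96.3%. Cytochromes P450 (38 genes) summed to 0.470%, 1.77% and 2.05% at 24 weeks and to 0.511%, 1.23% and 1.502% at 12 weeks, with both replicate 1 libraries below the other 4. Cyp4b1, their highest member, had log2 values of 12.55, 16.62 and 16.70 at 24 weeks and 12.76, 16.30 and 16.63 at 12 weeks. Cyp2e1 had 11.40, 15.13 and 15.27 at 24 weeks and 11.17, 14.72 and 15.24 at 12 weeks. Cyp2j5, which acts on arachidonic acid, was more even, at 14.22, 14.79 and 14.81 at 24 weeks and 14.60, 14.88 and 15.03 at 12 weeks. Cyp4a10, a fatty acid hydroxylase, was high in a different set of libraries: 12.71, 15.04 and 15.09 at 24 weeks and 12.76, 12.89 and 11.15 at 12 weeks.

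Conjugating and reducing enzymes varied less than the cytochromes P450. The glutathione transferases (19 genes), led by Gsta2 (733 ppm), summed to 0.519%, 0.384% and 0.377% at 24 weeks and to 0.542%, 0.382% and 0.342% at 12 weeks. The UDP-glucuronosyltransferases (14 genes), led by Ugt3a2 (1397 ppm), summed to 0.536%, 0.458% and 0.523% at 24 weeks and to 0.731%, 0.423% and 0.490% at 12 weeks. In both, replicate 1 of both ages lay above the other 4 libraries. The aldo-keto reductases summed to 0.604%, 0.619% and 0.608% at 24 weeks and to 0.732%, 0.776% and 0.817% at 12 weeks, each 24-week library below each 12-week library. Akr1a1 (3802 ppm) and Akr1c21 (2338 ppm) led them. A list of peptidases summed to 0.278%, 0.708% and 0.805% at 24 weeks and to 0.259%, 0.879% and 0.973% at 12 weeks. Its highest members were Acy3 (2986 ppm) and Ggt1 (1027 ppm), a peptidase of the brush border that splits glutathione.

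**Figure D4:**
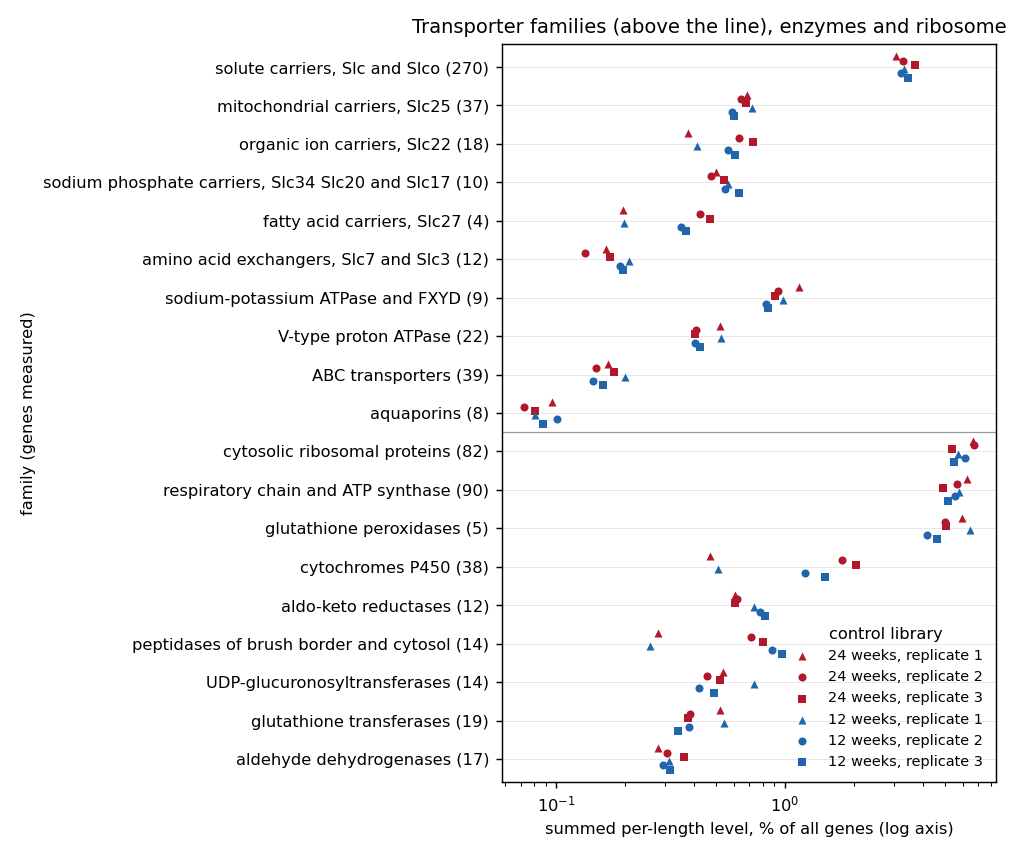
Summed per-length level (% of all genes, log axis) of transporter families (above the grey line) and of enzyme families and the ribosome (below it), with the number of genes measured in brackets; each point is 1 control library. Cytochromes P450 span 0.470% to 2.05% and peptidases 0.259% to 0.973%, with replicate 1 of both ages lowest, while the solute carriers as a whole span 3.07% to 3.72%.

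Among the lists of central metabolism, the glucose-making enzymes had the highest sum. The 10 genes summed to 1.64%, 2.41% and 2.28% at 24 weeks and to 1.77%, 1.22% and 1.29% at 12 weeks. Pck1, the gatekeeper enzyme of gluconeogenesis, had log2 values of 15.70, 17.04 and 16.88 at 24 weeks and 15.53, 13.86 and 13.83 at 12 weeks, a range of 9.26-fold. Fbp1 (fructose-1,6-bisphosphatase) averaged 1701 ppm, with 1515, 1946 and 2162 ppm at 24 weeks and 1724, 1350 and 1509 ppm at 12 weeks. G6pc, which releases free glucose, was even, at 13.58, 13.60 and 13.49 on the log2 scale at 24 weeks and 13.58, 13.46 and 13.49 at 12 weeks.

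Fat oxidation genes (23 genes) summed to 0.792%, 1.24% and 1.34% at 24 weeks and to 0.724%, 0.791% and 0.757% at 12 weeks. Replicates 2 and 3 of 24 weeks were the high libraries there, as for Cyp4a10 and Pck1. Enzymes of the tricarboxylic acid cycle (20 genes) were close to even, at 1.08%, 0.881% and 0.908% at 24 weeks and 1.15%, 0.910% and 0.910% at 12 weeks. Amino acid breakdown genes (36) summed to 1.32% to 1.83%, led by Ass1 (argininosuccinate synthase of arginine formation, 3274 ppm). Gatm, the first enzyme of creatine formation, had log2 values of 14.85, 12.66 and 12.54 at 24 weeks and 15.53, 13.82 and 13.85 at 12 weeks, highest in replicate 1 of both ages.

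The shared machinery of the cell took a large part of the per-length total. Genes of the respiratory chain and ATP synthase, with assembly factors of complex I (90 genes), summed to 6.27%, 5.68% and 4.91% at 24 weeks and to 5.75%, 5.54% and 5.18% at 12 weeks, led by Atp5b (3636 ppm). Cytosolic ribosomal proteins (82 genes) summed to 6.67%, 6.71% and 5.37% at 24 weeks and to 5.71%, 6.15% and 5.50% at 12 weeks, led by Rpl41 (1990 ppm). Without replicate 1 of both ages the means were 5.33% for the respiratory chain and 5.93% for the ribosomal proteins, in place of 5.55% and 6.02%. Counted by reads, the respiratory chain held 2.70% and the ribosomal proteins 2.39%. No gene of the mitochondrial chromosome was among the measured genes, so these shares are of nuclear genes.

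By the annotation in the files, some terms held more of the reads than of the genes and others less. Genes annotated to the mitochondrion, all nuclear, were 12.3% of all genes, held 20.996% to 23.7% of reads and were 33 of the 100 most abundant. Genes of the extracellular space were 5.77% of genes and held 14.02% to 15.8% of reads, which includes Gpx3. Genes annotated to the plasma membrane were 17.9% of genes and held 22.3% to 24.3% of reads. The largest term, the nucleus, was 34.4% of genes and held 30.3% to 32.4% of reads, with 26 among the first 100. Genes of transcription control were 11.5% of genes and held 5.56% to 6.88% of reads, with 2 among the first 100. The 218 zinc finger (Zfp) genes summed to 0.254%, 0.180% and 0.206% of the per-length total at 24 weeks and to 0.278%, 0.219% and 0.225% at 12 weeks, with a median member at 6.65 ppm.

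Genes named for a known role or as a check lay at widely different levels. Ren1 (renin, of the juxtaglomerular cells) had log2 values of 9.82, 10.16 and 9.86 at 24 weeks and 9.79, 9.90 and 9.17 at 12 weeks. Its rank was 3005 of 11614, just below the upper quartile of 9.83. Havcr1 (kidney injury molecule 1), which is induced by tubular injury, had 4.61, 7.29 and 6.49 at 24 weeks and 6.39, 5.27 and 4.89 at 12 weeks, near the bottom of the table at rank 11454. Alb (albumin, made by the liver) had 9.15, 8.29 and 7.50 at 24 weeks and 9.36, 7.69 and 8.02 at 12 weeks. Kl (klotho, a co-receptor of a phosphate hormone) stood at rank 96, with 14.16, 13.02 and 13.16 at 24 weeks and 14.05, 13.62 and 13.66 at 12 weeks, highest in replicate 1 of both ages.

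Among the 500 most abundant genes few were very uneven between libraries (an SD over 1), and such genes were most frequent in the first 100. Over the first 500 genes the SD of the log2 read share across the 6 libraries had a median of 0.24, was under 0.2 for 194 genes and over 1 for 22. An SD over 1 was found in 8.0% of ranks 1 to 100 (8 genes) and in 3.5% of the next 400 genes (14), against 2.84% of all 11614 genes and 1.57% to 3.45% in the bins of lower rank. Of the 22, 15 had replicate 1 of both ages below the other 4 libraries and 5 had it above. Among all 500, replicate 1 of both ages lay below the other 4 libraries in 153 genes (30.6%) and above in 105. Over all 11614 genes, 1469 (12.6%) lay below and 3970 (34.2%) above, on the scale of scaled reads.

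The 10 widest were Ces1f, Kap, Chrm2, Cyp4b1, Cyp2e1, Acy3, Cyp4a10, Cndp2, Atp11a and Inmt. Ces1f, a carboxylesterase, had log2 values of 9.17, 14.13 and 14.10 at 24 weeks and 8.54, 13.68 and 13.90 at 12 weeks. Chrm2, a muscarinic acetylcholine receptor, had 10.70, 14.08 and 13.80 at 24 weeks and 8.08, 14.35 and 14.19 at 12 weeks. Except for Cyp4a10, each of the 10 was lower in both replicate 1 libraries than in any of the other 4. Ghitm, Dazap2, Pccb and Got2 were among the 5 most even, and Ghitm, a protein of the inner mitochondrial membrane, lay between 13.16 and 13.21 in all 6 libraries.

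**Figure D5:**
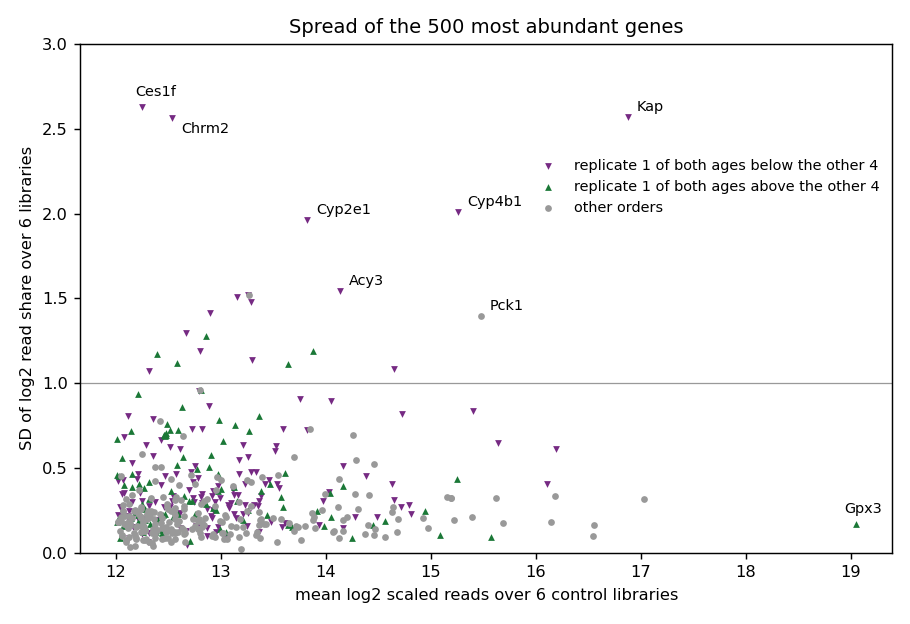
SD of the log2 read share over the 6 control libraries (vertical axis) against the mean log2 scaled reads (horizontal axis) for the 500 most abundant genes, 1 point per gene, with a grey line at an SD of 1 and shapes for the place of replicate 1. Most points lie under the line, 22 lie above it, and 15 of those 22 have replicate 1 of both ages below the other 4 libraries.

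Several abundant rows are named as copies of another gene and are uncertain as separate genes, since how the authors' counting split reads between such rows is not given in the sources used here. The pseudogene row Gm5424 stood at 99.8% of the level of Ass1, which it follows in rank, and the pair differed by at most 0.0043 on the log2 scale in any library. The interval of Gm5424 (chr2:31470308-31520629) lies inside that of Ass1 (chr2:31470270-31520670) on the same strand. Gm1821, a ubiquitin pseudogene, stood at 209% of Ubb, and its interval (chr11:62551504-62553206) lies inside that of Ubb (chr11:62551171-62553213) on the same strand. Gm12070 stood at 79.6% of Gapdh and Gm6548 at 25.2% of Eef1a1, and whether these rows share reads was not tested. Rows named as pseudogenes numbered 81 and held 1.15% to 1.31% of reads. The rows Ugt1a1, Ugt1a5, Ugt1a6a, Ugt1a6b, Ugt1a9 and Ugt1a10, which are products of a single locus with shared exons, agreed within 0.06 on the log2 scale in every library, so the sum of their family may count some reads more than once.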

How the data were processed

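RNA of kidney cortex was sequenced in 12 libraries, of which the 6 control libraries were used here. The deposited values are log2 values of normalized read counts for 11614 genes with RefSeq gene models, per the file headers. BWA, limma and the mm10 build are named in the submitters' processing notes, without versions or roles. How the authors set the factor of each library is not given in the sources used here.

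The factor was estimated as the largest step of which the values are multiples, and ranged from 1.00 to 1.36 scaled reads per read. Among low values (under 60 steps), 85.5% to 90.7% lay within 0.01 steps of a whole multiple, and totals of scaled reads were 13600000 to 14100000. The estimate and the share sums were tested on simulated data. Each gene had at least 100 scaled reads in at least 1 of the 12 libraries, so low genes had been left out upstream.

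Values were made linear (2 to the power of the log2 value). Read share is a gene's part of a library's total, which does not depend on the factor. Per-length levels divide by the exonic length in the files. Lists were matched by symbol or a unique synonym, families by symbol pattern. The text names the 30 highest genes on either scale, up to 5 leading members per list, the 10 widest and 5 most even of the first 500, and a fixed set, though not all genes of this rule are reported here. Cyp27b1, Ubb and the Ugt1a rows were named after their values were seen, and the annotation terms were chosen then. Predicted loci are named only where they are named as a copy of a named gene or stand in the first 30. The members and lists were chosen with earlier results of these data known. Symbols turned into dates (16) are not named. Coordinates are on mm10 with starts raised by 1, since 234 lengths in the files matched a start counted from 0 and none a start counted from 1. Tools were Python 3.11.15, numpy 2.4.6, pandas 2.3.3, scipy 1.17.1 and matplotlib 3.10.9. Alternatives changed the scale, the length, the filter, the ranking, the genes in the total and the libraries kept.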

Additional observations from a re-analysis of the deposited data

How the results depend on the processing

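For 8 summary values, 96 of 116 comparisons with an alternative moved by less than the spread between libraries or, for the count of genes, by under 1.5 times, and 20 moved more. Leaving out a single library, or replicate 1 of both ages, can hardly move a mean over libraries by more than their SD. For the values judged by that spread, comparisons of this kind were thus nearly fixed in advance. With a total that leaves out Gpx3 and Kap, the most abundant gene held 1.05%, the first 10 held 6.08% and the first 100 held 21.8% of reads; per length, solute carriers held 3.75%, proximal tubule markers 5.58%, the respiratory chain 6.20% and ribosomal proteins 6.72%. On the other scale (per length for reads, reads for per length) the values were 5.45%, 16.04% and 33.6%, 50% lay in 318 genes on average, and solute carriers held 4.75%, the respiratory chain 2.70% and ribosomal proteins 2.39%. With lengths shortened by 200 bases, solute carriers held 3.00%, proximal tubule markers 9.29%, the respiratory chain 6.68% and ribosomal proteins 7.31%. With GENCODE lengths the respiratory chain held 5.03%, and without Gpx3 in the list the proximal tubule markers held 4.97%. The length and the members of a total make these differences by construction.

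Leaving out 1 library at a time gave 3.82% to 4.06% for the most abundant gene, 10.4% to 11.1% for the first 10, 25.4% to 26.9% for the first 100, 584.0 to 645.8 genes for 50% of reads, 3.27% to 3.40% for solute carriers, 9.84% to 10.2% for proximal tubule markers, 5.41% to 5.68% for the respiratory chain and 5.88% to 6.15% for ribosomal proteins. GENCODE lengths, totals without pseudogenes, the list without Gpx3 and the removal of replicate 1 of both ages were chosen after seeing the data. No paired analysis was possible because the results come from no test. Depth limits little at the top, where counts are large. Levels of genes with more than 1 transcript depend on how the authors joined transcripts. The part of sex or of pooling in the spread between libraries was not tested.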

Other observations

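Genes of vitamin D and phosphate handling differed in how even they were over the 6 control libraries. Pth1r, the receptor of parathyroid hormone, was even, with log2 values of 12.74, 12.98 and 13.04 at 24 weeks and 12.62, 12.92 and 12.93 at 12 weeks. Cyp24a1, the enzyme that breaks down vitamin D, had 10.68, 13.31 and 12.85 at 24 weeks and 11.31, 8.52 and 11.15 at 12 weeks, the highest being replicate 2 of 24 weeks and the lowest replicate 2 of 12 weeks. Cyp27b1, which activates vitamin D, was low, with 7.48, 5.52 and 6.28 at 24 weeks and 5.63, 6.57 and 5.86 at 12 weeks. Spp1 (osteopontin, a urinary protein that rises with tubular injury) had 14.88, 13.32 and 12.53 at 24 weeks and 15.15, 13.08 and 12.87 at 12 weeks, above the other 4 libraries in replicate 1 of both ages.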
